A study of Macaca fascicularis with 16 samples.

Results

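The cadherin and protocadherin genes of the aorta of the cynomolgus monkey (Macaca fascicularis) were followed along the vessel. Genes were taken whose symbol begins with CDH or PCDH and a number, or with a letter and a number after that prefix (the PCDHB genes). The CDHR genes and CDH5, the cadherin of endothelial junctions, were left out by this rule. Of 42 such genes in the deposited counts, 29 of the 32846 rows had at least 10 counts in at least 4 of the 16 libraries, and these are the members described here. They comprise 10 CDH genes, 10 protocadherins outside the PCDHB cluster and 9 PCDHB genes. None of the 42 symbols begins with PCDHA or PCDHG. The libraries were made from bulk total RNA of aortas of normal young animals, all labelled as baseline, with 4 libraries each from the ascending, descending, suprarenal and infrarenal aorta. The ascending and descending segments belong to the thoracic aorta and the other 2 to the abdominal aorta. The labels give no genotype, sex or exact age. They do not say whether the 4 libraries of a region come from separate animals, so p-values measure only the spread between these libraries.

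Cadherins are membrane proteins whose extracellular domains bind calcium and join neighbouring cells, usually by binding the same cadherin on the other cell. Classical cadherins hold catenins on their cytoplasmic side, and the catenins link the junction to actin. In the vessel wall, N-cadherin (CDH2) joins smooth muscle cells, and T-cadherin (CDH13) has no cytoplasmic tail but is anchored in the membrane by a lipid. Protocadherins lack the catenin binding of classical cadherins and are best known from the nervous system, where the clustered PCDHB genes help neurons to recognise each other.

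Levels are given as CPM, counts per 1e6 counts of the library, scaled by edgeR's TMM factors, and differences as log2 values of edgeR's quasi-likelihood fit across all 15926 genes tested, which include all 29 members. A gene was called when its Benjamini-Hochberg adjusted p over all of these genes was under 0.05. Gene lengths were not used, so CPM levels of different genes are not compared. Library totals ran from 14.4 to 21.41, in units of 1e6 counts. Infrarenal library 1 stood apart, with a TMM factor of 0.736 against 0.977 to 1.08 in the others, and the members held 0.0445% of its counts against 0.0732% to 0.109% elsewhere. MYH11, which encodes smooth muscle myosin, was present in every library, from 2952 CPM in suprarenal library 3 to 14106 CPM in ascending library 2. Ascending library 4 and suprarenal library 3 had high endothelial markers and low MYH11 (3985 and 2952 CPM). With infrarenal library 1 they are the 3 libraries that stood apart, and values without these 3 are given where a result rests on them.

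Most members differed by less than 2-fold between region means, and a single protocadherin, PCDH9, passed the test of any difference among the 4 regions. That is 1 of 29 members, where 2.02% of all genes tested were called. The ratio of the highest to the lowest region mean ran from 1.13 (PCDHB3) to 14.5 (PCDH9), with a median of 1.5. It was under 2 in 20 members and above 3 in 5, namely PCDH9, CDH7, CDH19, CDH2 and PCDH15. The ascending aorta had the lowest mean in 13 members and the infrarenal aorta in 9. The highest mean lay in the suprarenal region in 8 members, in the descending in 8, in the infrarenal in 7 and in the ascending in 6.

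**Figure D1:**
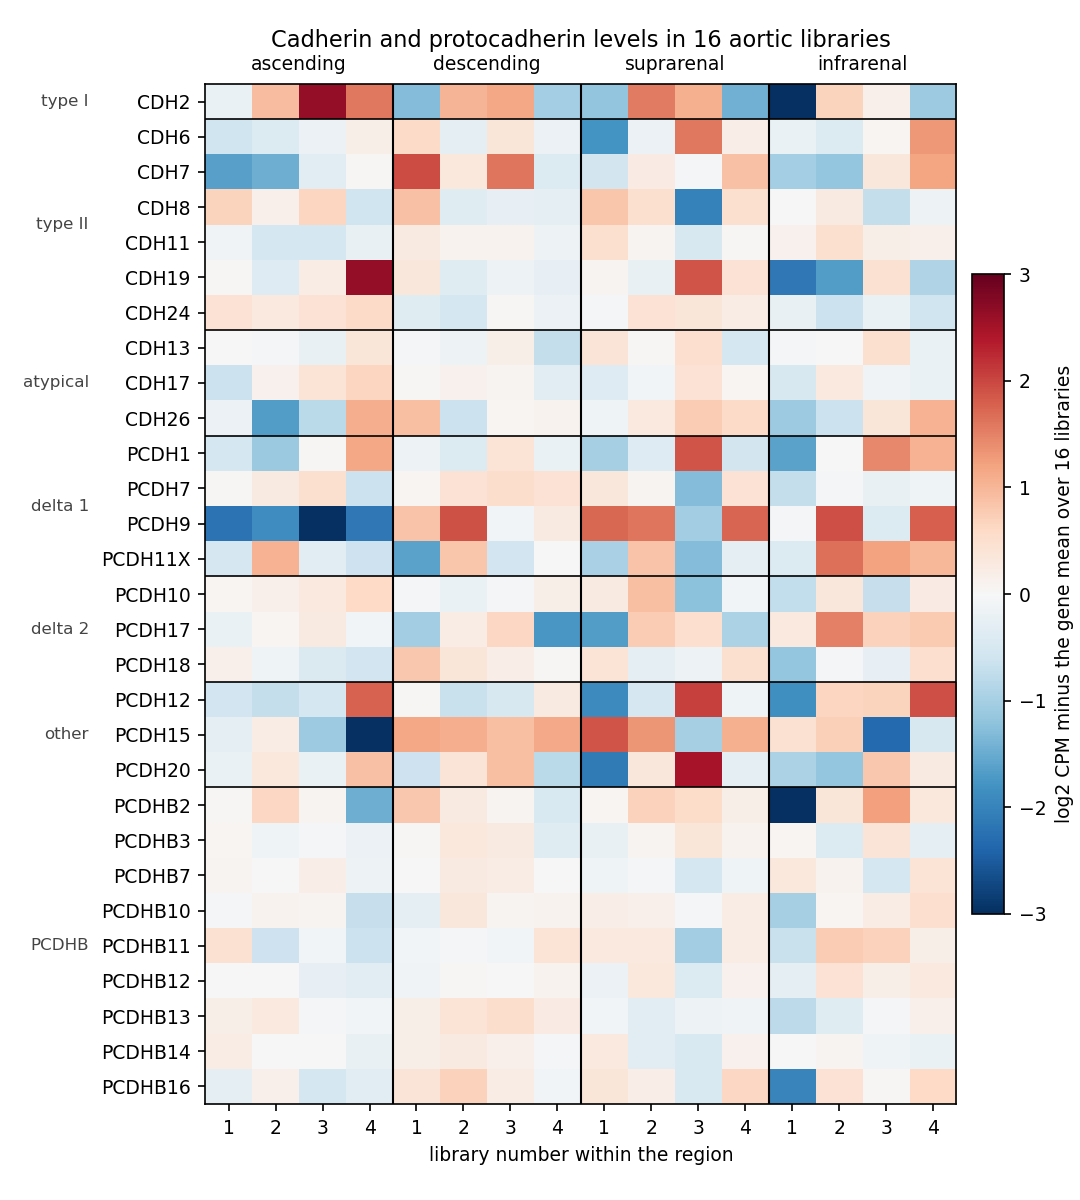
Level of each of the 29 members (rows, grouped by family) in each of the 16 libraries (columns, by region and library number), as log2 CPM minus the gene's mean over the 16 libraries. Colours end at 3 log2 units in either direction. PCDH9 is low in all 4 ascending libraries, CDH24 is below its mean in all 4 infrarenal libraries and above it in all 4 ascending ones, and CDH19, PCDH1 and PCDH12 are high in ascending library 4 and suprarenal library 3.

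The members that passed the count rule did so in more than 1 region, and 22 of 29 had at least 10 counts in all 16 libraries. CDH7 lay just inside the rule, with 10 counts in 12 libraries and 434 counts in total. PCDH19 (75 counts, 3 libraries with at least 10) and CDH20 (131 counts, 2 libraries) lay just outside. The genes left out by the rule also include CDH1, the epithelial E-cadherin, with 12 counts over all libraries, CDH3, the P-cadherin, with 42, CDH18 with 56 and CDH22 with 20. CDH4, CDH15, CDH9, CDH16 and PCDH8 had 9 counts or fewer. CDH12 and PCDHB1 had 0 counts in every library, which allows up to 3 counts per library, counting error only.

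CDH2, the classical type I cadherin of smooth muscle, had its highest mean in the ascending aorta. It was not called in any comparison of the fit by region alone. It stood at 3.82, 8.39, 27.7 and 13.3 CPM in ascending libraries 1 to 4 (13.3 ± 10.4, SD, n = 4). The descending libraries had 1.71, 9.03, 10 and 2.11 CPM (5.71 ± 4.42), the suprarenal ones 1.86, 13.2, 9.26 and 1.54 (6.48 ± 5.76) and the infrarenal ones 0.0771, 6.98, 4.85 and 1.98 (3.47 ± 3.05). The regions overlapped, and in the descending, suprarenal and infrarenal aorta libraries 2 and 3 were above libraries 1 and 4. The infrarenal value of 0.0771 CPM is 1 count, in the library that stood apart. The infrarenal region against the ascending gave a log2 difference of -1.93 (SE 0.95, 95% interval -3.95 to 0.08, adjusted p = 0.43), and the test of any difference an adjusted p of 0.83. The other comparisons of CDH2 gave -1.18 (SE 0.81) for the infrarenal region set against the average of the other 3 and -0.87 (SE 0.65) for the abdominal against the thoracic aorta. They gave -1.22 (SE 0.92) for descending against ascending, 0.18 (SE 0.92) for suprarenal against descending and -0.90 (SE 0.93) for infrarenal against suprarenal. Leaving out 1 library moved these sizes by more than 1.5 times: descending against ascending ran from -1.64 to -0.58 (the last without ascending library 3), infrarenal against suprarenal from -1.48 to -0.27 (without infrarenal library 2 and suprarenal library 2). With the library number added to the fit as a block, infrarenal against ascending passed for CDH2 (-2.36, SE 0.58, adjusted p = 0.0324). The labels do not tie that number to an animal.

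The type II cadherins CDH24 and CDH11 had their extreme means at the ends of the vessel, in opposite order. CDH24 fell in the infrarenal against the ascending aorta. It stood at 6.83, 6.23, 6.90 and 7.60 CPM in the ascending libraries (6.89 ± 0.562, SD, n = 4) and at 4.32, 3.19, 4.39 and 3.28 CPM in the infrarenal ones (3.8 ± 0.648). All 4 infrarenal libraries lay below all 4 ascending ones, and the log2 difference was -0.86 (SE 0.21, 95% interval -1.32 to -0.40, adjusted p = 0.036). The order along the vessel was not monotonic. The descending libraries stood at 3.91, 3.49, 5.16 and 4.49 CPM (4.26 ± 0.722) and the suprarenal ones at 4.95, 6.89, 6.54 and 5.91 CPM (6.07 ± 0.851). The descending group lay wholly below the ascending one and overlapped the suprarenal and infrarenal ones, and the infrarenal group lay wholly below the suprarenal one. CDH24 did not pass the test of any difference (adjusted p = 0.098), nor descending against ascending (-0.69, SE 0.21, adjusted p = 0.38), infrarenal against suprarenal (-0.68, SE 0.21, adjusted p = 0.43), suprarenal against descending (0.51, SE 0.21, adjusted p = 1), infrarenal against the rest (-0.57, SE 0.18, adjusted p = 0.13) or abdominal against thoracic (-0.18, SE 0.15, adjusted p = 0.81). The infrarenal against ascending call was lost in 9 of 16 fits that left out 1 library (every ascending library, infrarenal 2, 3 and 4, descending 4 and suprarenal 4, adjusted p up to 0.122) and with no filter on low counts (adjusted p = 0.1). DESeq2 also called CDH24 in the test of any difference (adjusted p = 0.000801), in descending against ascending (0.0438) and in infrarenal against the rest (0.0228).

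CDH11, a cadherin of mesenchymal cells, was singled out after its values were seen. Its ascending libraries had 45.3, 33.9, 34.1 and 41.9 CPM (38.8 ± 5.72, SD, n = 4) and its infrarenal libraries 53.7, 68.7, 55.7 and 54.9 CPM (58.3 ± 7). The descending (52.3 ± 6.11 CPM) and suprarenal (51.3 ± 13.6 CPM) means lay between. The infrarenal libraries were all above the ascending ones, but the log2 difference of 0.59 (SE 0.18) did not pass (adjusted p = 0.11). It passed with DESeq2 (0.60, adjusted p = 0.0318), without suprarenal library 3 (0.58, adjusted p = 0.0435) and without the 3 libraries that stood apart (0.66, adjusted p = 0.0184).

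The other type II cadherins were not called in any comparison. CDH19, which is known from Schwann cells, had 39.5 CPM in ascending library 4 and 4.75 to 7.32 CPM in the other 3 ascending libraries, and 23.4 CPM in suprarenal library 3 against 5.31 to 8.44 in the other 3. Its infrarenal libraries ran from 1.31 to 8.52 CPM, and infrarenal against ascending gave -1.95 (SE 0.72, adjusted p = 0.21). That size rests on ascending library 4: it was -0.71 without that library (adjusted p = 0.66) and -0.44 without the 3 libraries that stood apart (adjusted p = 0.57). SOX10, a transcription factor of Schwann cells and their precursors, was also highest in those same libraries, at 14.4 CPM in ascending library 4 and 10.6 CPM in suprarenal library 3 against 0.602 to 4.78 CPM in the other 14. The summed level of the 9 Schwann cell markers found in the files did not have that order, at 373 to 627 CPM in the ascending, 338 to 539 in the descending, 324 to 691 in the suprarenal and 268 to 375 in the infrarenal region, with ascending library 4 at 408 CPM and suprarenal library 3 at 324 CPM. The part of Schwann cells in the CDH19 values was not tested, and in bulk tissue fewer cells of a type and less RNA per cell cannot be told apart. CDH7 had its highest mean in the descending aorta (2.9 ± 2 CPM) and its lowest in the ascending (0.730 ± 0.465 CPM), a difference of 1.97 (SE 0.69, adjusted p = 0.51), with overlap of the regions. CDH8 ranged from 6.35 CPM in suprarenal library 3 to 48.8 CPM in descending library 1, and CDH6 from 0.804 CPM in suprarenal library 1 to 9.58 CPM in suprarenal library 3.

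CDH13, the T-cadherin, and the other cadherins outside types I and II differed by at most 1.38 times between region means. CDH13 stood at 102, 101, 88.8 and 134 CPM in the ascending libraries (106 ± 19.2, SD, n = 4) and at 100.04, 103, 144 and 89.2 CPM in the infrarenal ones (109 ± 23.9). The descending libraries had 100.1, 93.5, 116 and 62.5 CPM (93 ± 22.4) and the suprarenal ones 136, 105, 147 and 71.5 CPM (115 ± 34). All 4 regions overlapped. The difference of infrarenal against ascending was 0.04 (SE 0.24, 95% interval -0.47 to 0.54, adjusted p = 0.98), and the interval of infrarenal against the rest ran from -0.35 to 0.47 around 0.06. The other 4 differences of CDH13 lay between -0.19 (descending against ascending) and 0.30 (suprarenal against descending). CDH17, the intestine and liver cadherin, ran from 2.88 to 7.12 CPM with means from 4.25 to 5.26 CPM, and CDH26 from 0.679 to 5.31 CPM with means from 2.36 to 3.27 CPM, with no call for either.

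**Figure D2:**
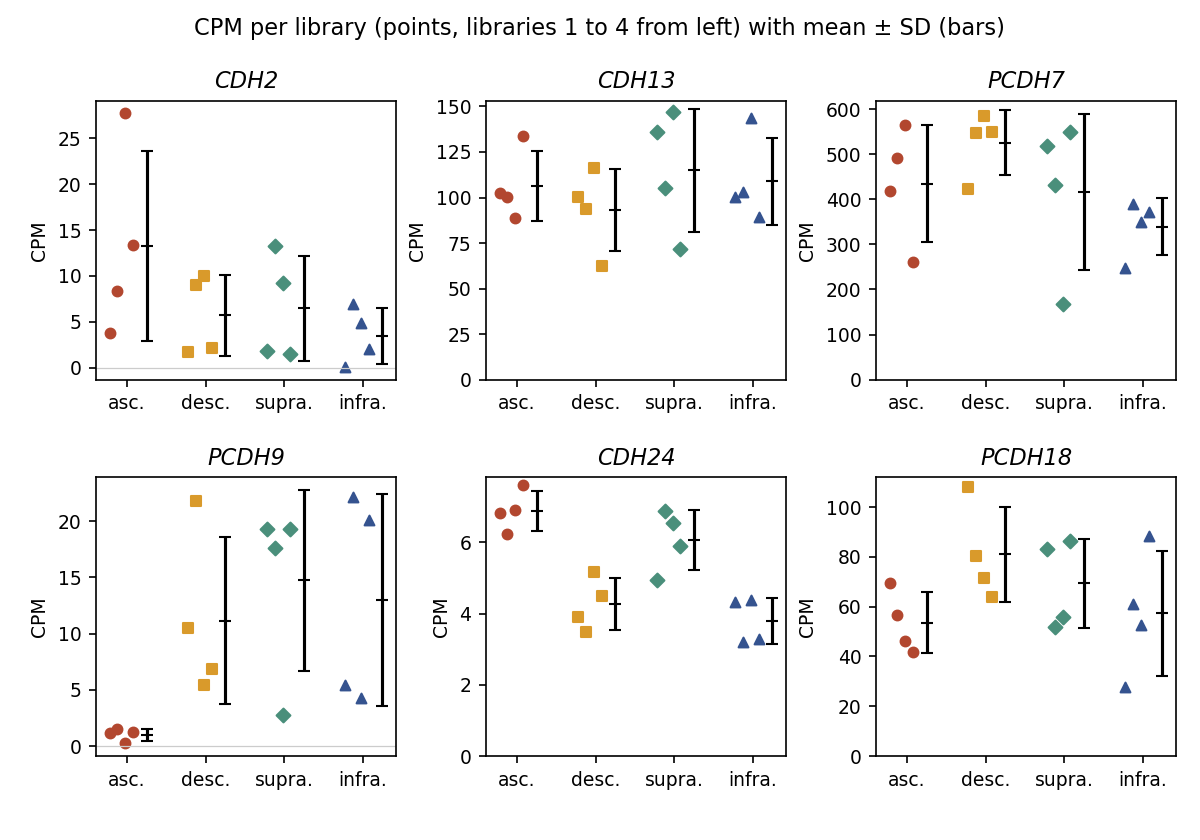
CPM of CDH2, CDH13, PCDH7, PCDH9, CDH24 and PCDH18 (1 panel each, vertical axis CPM) by region of the aorta, with a point for each of the 4 libraries of a region, in the order of their numbers, and bars for mean ± SD. The 4 ascending libraries of PCDH9, at 0.242 to 1.48 CPM, sit below all others, and the infrarenal libraries of CDH24, at 3.19 to 4.39 CPM, below the ascending ones at 6.23 to 7.60 CPM.

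PCDH9, a delta-1 protocadherin best known from brain, had the widest regional range of the members: it was low in the ascending aorta and higher in each of the other regions. The ascending libraries had 1.13, 1.48, 0.242 and 1.21 CPM (1.01 ± 0.537, SD, n = 4). The descending libraries had 10.5, 21.8, 5.40 and 6.87 CPM (11.1 ± 7.42), the suprarenal ones 19.3, 17.6, 2.73 and 19.3 CPM (14.7 ± 8.05) and the infrarenal ones 5.48, 22.2, 4.26 and 20.1 CPM (13.0 ± 9.43). All 4 ascending libraries lay below all 12 others, while the descending, suprarenal and infrarenal groups overlapped one another. The share of all genes with the ascending libraries below all others was not counted.

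PCDH9 rose in the infrarenal against the ascending aorta by 3.67 on the log2 scale (SE 0.75, 95% interval 2.07 to 5.27, adjusted p = 0.011). With CDH24 it makes 2 of 29 members called in that comparison where 3.49% of all genes tested were called. It is 1 of 29 called higher, where 1.43% of all genes were, and CDH24 is 1 of 29 called lower, where 2.06% were. The call held in all 22 other settings, with an adjusted p of at most 0.0398 and a difference of 3.29 to 4.02. PCDH9 also rose in the abdominal against the thoracic aorta, by 2.04 (SE 0.49, adjusted p = 0.043), the single member of 29 called, where 2.11% of all genes were called and 0.942% were called higher. The 8 abdominal libraries overlapped the 4 descending ones in that comparison. The test of any difference gave an adjusted p of 0.048. Those 2 calls were lost when libraries were scaled by their totals alone (0.0508 and 0.0607), and in 12 of 16 fits that left out 1 library, each fit but those without descending 2, suprarenal 3, infrarenal 1 or infrarenal 3 (up to 0.0990 and 0.159). Descending against ascending gave 3.45 (SE 0.75, adjusted p = 0.098). It passed with DESeq2 (adjusted p = 0.000172), with the library number as a block (3.55, adjusted p = 0.0047) and without the 3 libraries that stood apart (3.54, adjusted p = 0.0404). Infrarenal against suprarenal (-0.18, SE 0.65), suprarenal against descending (0.41, SE 0.66) and infrarenal against the rest (1.24, SE 0.51, adjusted p = 0.28) did not pass.

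Summed levels of markers of other cells overlapped between the ascending and each of the other regions. In infrarenal against ascending 1 of 8 fibroblast markers was called, COL1A1, where 3.49% of all genes were. There 6 of the 8 had a difference above 0, while DPT averaged 298 CPM in the ascending and 205 CPM in the infrarenal region. Called in that comparison were 0 of 7 adipocyte markers and 0 of the 2 neuron markers tested. The summed level of 8 fibroblast markers was 1939 to 4541 CPM in the ascending, 4185 to 7248 in the descending, 2837 to 7884 in the suprarenal and 4445 to 8276 in the infrarenal region. The 7 white adipocyte markers summed to 133 to 576 CPM in the ascending, 288 to 2845 in the descending, 141 to 2637 in the suprarenal and 147 to 2993 in the infrarenal region. In the ascending, descending, suprarenal and infrarenal regions the libraries of highest adipocyte sum were 4, 1, 3 and 3. They had 1.21, 10.5, 2.73 and 4.26 CPM of PCDH9 in that order, of which the last 2 were the lowest in their regions. The libraries of highest fibroblast sum were 4, 1, 3 and 4 in the same order of regions, with 1.21, 10.5, 2.73 and 20.1 CPM of PCDH9. Of 9 neuron markers the sum was 2.44 to 12.7 CPM in the ascending, 4.12 to 5.24 in the descending, 2.54 to 17.7 in the suprarenal and 5.48 to 24.8 in the infrarenal region. RBFOX3 was at 0 in all libraries, while SNAP25 averaged 3.09 CPM in the ascending and 6.63 CPM in the infrarenal region and TH, an enzyme of catecholamine synthesis, 0.0308 and 1.75 CPM. TH had only 153 counts over all libraries. SYT1, also on that list, went the other way, at 2.43 CPM in the ascending and 1.94 CPM in the infrarenal region. The part of these cells in the PCDH9 values was not tested.

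PCDH7, another delta-1 protocadherin, was not called in any comparison. It had 419, 491, 565 and 262 CPM in the ascending libraries (434 ± 130, SD, n = 4) and 422, 546, 586 and 548 CPM in the descending ones (526 ± 71.4). The suprarenal libraries had 518, 432, 167 and 549 CPM (416 ± 174) and the infrarenal ones 247, 390, 350 and 371 CPM (340 ± 63.9). The 2 lowest values outside the infrarenal region were those of ascending library 4 and suprarenal library 3, and all 4 infrarenal libraries lay below all 4 descending ones. Infrarenal against descending was not among the comparisons tested, and the share of all genes separated in that way was not counted. The difference of infrarenal against the rest was -0.43 (SE 0.26, 95% interval -0.98 to 0.12, adjusted p = 0.50), and it passed without the 3 libraries that stood apart (-0.45, SE 0.12, adjusted p = 0.0377). The other differences of PCDH7 were -0.35 (SE 0.22) for abdominal against thoracic, -0.35 (SE 0.31) for infrarenal against ascending, 0.28 (SE 0.31) for descending against ascending, -0.34 (SE 0.31) for suprarenal against descending and -0.29 (SE 0.31) for infrarenal against suprarenal.

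Of the remaining delta-1 protocadherins, PCDH11X, an X-linked gene, had its highest mean in the infrarenal aorta, at 14 ± 6.86 CPM against 7.14 ± 4.68 in the ascending, 6.39 ± 4.29 in the descending and 5.95 ± 4.36 in the suprarenal region. The regions overlapped, and infrarenal against the rest gave 1.11 (SE 0.46, adjusted p = 0.28). With the library number as a block that difference passed (1.19, SE 0.24, adjusted p = 0.0144). PCDH1, an adhesion protein of epithelia and endothelia, was not called with all libraries. It had 43.1 CPM in suprarenal library 3, 31.7 in infrarenal library 3, 25.9 in ascending library 4 and 23.9 in infrarenal library 4, and 3.70 to 15.3 CPM in the other 12.

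The delta-2 protocadherins PCDH10, PCDH17 and PCDH18 were not called. PCDH18 stood at 53.5 ± 12.3 CPM in the ascending, 81.0 ± 19.2 in the descending, 69.3 ± 17.9 in the suprarenal and 57.3 ± 25 in the infrarenal region (SD, n = 4). Single libraries ran from 27.5 CPM (infrarenal 1) to 108 CPM (descending 1), and the adjusted p of any difference was 0.82. Its difference was 0.60 (SE 0.29) for descending against ascending and lay between -0.27 and 0.10 in the other 5 comparisons. PCDH17 had 15.9, 37.3, 21.0 and 22.4 CPM in the infrarenal libraries (24.1 ± 9.22), all above the ascending ones at 11.2 to 15.5 CPM. The descending libraries ran from 3.77 to 20 CPM and the suprarenal ones from 3.96 to 22 CPM, so the infrarenal group overlapped these. Its differences of 0.88 (SE 0.53, adjusted p = 0.58) against the ascending region and 0.97 (SE 0.41, adjusted p = 0.29) against the rest did not pass. PCDH10 ranged from 14.8 CPM in suprarenal library 3 to 65.6 CPM in suprarenal library 2, with region means from 32.1 to 42.9 CPM.

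PCDH12, the VE-cadherin-2 of endothelial cells, was not called with all libraries and, like PCDH1, was high in libraries with high endothelial markers. PCDH12 had 36.2 CPM in ascending library 4 against 6.36 to 7.26 in the other 3, and 44.0 CPM in suprarenal library 3 against 2.72 to 9.63 in the other 3. The infrarenal libraries had 2.85, 16.5, 16.9 and 40.6 CPM and the descending ones 6.56 to 12.8 CPM. The summed level of 10 endothelial markers was 1943 CPM in ascending library 4 (486 to 708 in the other 3), 3381 CPM in suprarenal library 3 (545 to 838 in the other 3), 2697 CPM in infrarenal library 3 (750 to 1268 in the other 3) and 746 to 1037 CPM in the descending region. CDH5 itself, also one of those markers, had 126, 247 and 177 CPM in the 3 libraries named and 18.4 to 94.7 CPM elsewhere. The order was not the same throughout: infrarenal library 4 had 40.6 CPM of PCDH12 with 1268 CPM of endothelial markers, and infrarenal library 3 had 16.9 CPM of PCDH12 with 2697 CPM of them. Without ascending library 4, suprarenal library 3 and infrarenal library 1, PCDH1 and PCDH12 passed the test of any difference (adjusted p = 0.0444 and 0.0305). That set keeps infrarenal library 3, which has a high endothelial sum. The part of endothelial cells in these values was not tested.

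**Figure D3:**
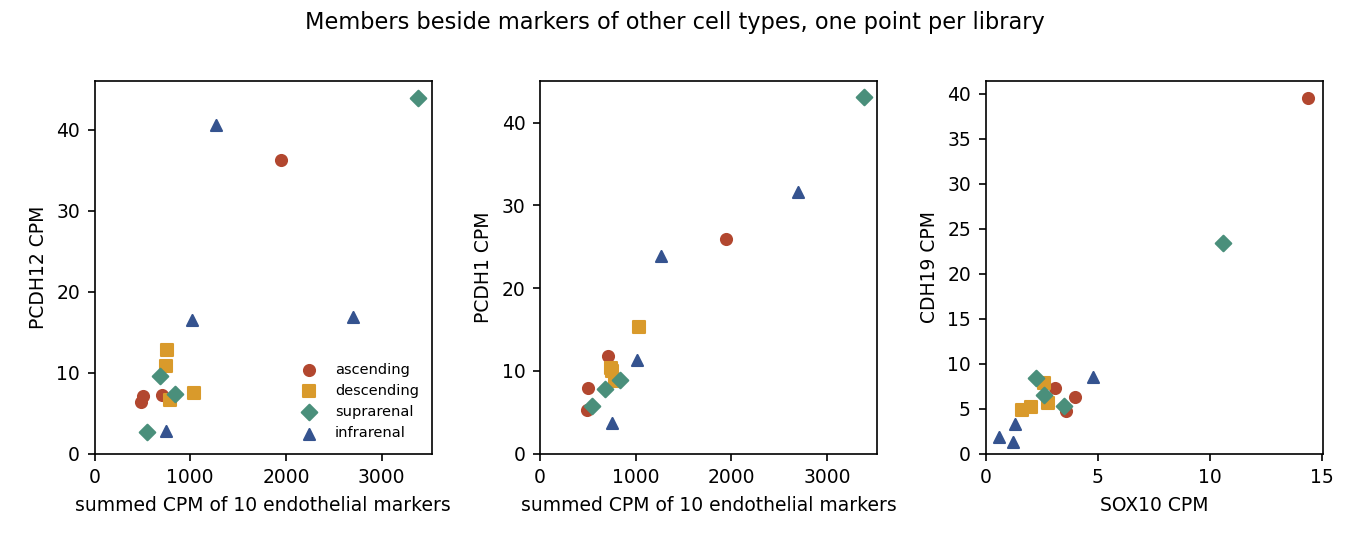
PCDH12 and PCDH1 (CPM, vertical axes) against the summed CPM of 10 endothelial markers, and CDH19 (CPM) against SOX10 (CPM), with a point per library and a symbol per region. The highest PCDH12 and PCDH1 values, 44.0 and 43.1 CPM, belong to suprarenal library 3, which has the highest endothelial sum, and the highest CDH19 value, 39.5 CPM, to ascending library 4, which has the highest SOX10.

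PCDH15, known from the tip links of the inner ear, was lowest in the ascending aorta. It stood at 11.9, 17.2, 6.90 and 0.422 CPM there (9.11 ± 7.16, SD, n = 4) and at 32.9, 31.4, 27.8 and 32.4 CPM in the descending libraries (31.1 ± 2.32), without overlap. The suprarenal libraries had 54.9, 37.0, 7.30 and 30.8 CPM and the infrarenal ones 20.3, 24.4, 2.82 and 10.6 CPM, both overlapping the ascending ones. Descending against ascending gave 1.77 (SE 0.77, adjusted p = 0.71) and was not called. Ascending library 4, infrarenal library 3 and suprarenal library 3, the 3 libraries with the highest endothelial sums, had the lowest PCDH15 value of their regions. PCDH20, a gene adjacent to PCDH9 in the annotation used for names, ran from 0.309 to 10.2 CPM, both in the suprarenal region, and was not called.

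The summed level of the 9 PCDHB genes had region means between 75.2 and 85.5 CPM. The sum was 82.3, 80.9, 76.7 and 61.1 CPM in the ascending libraries (75.2 ± 9.73, SD, n = 4) and 81.0, 96.1, 86.8 and 78.2 CPM in the descending ones (85.5 ± 7.92). It was 85.1, 78.3, 65.7 and 86.7 CPM in the suprarenal libraries (79.0 ± 9.52) and 61.9, 84.4, 82.6 and 88.4 CPM in the infrarenal ones (79.3 ± 11.9). The lowest sums were in ascending library 4, infrarenal library 1 and suprarenal library 3, the libraries that stood apart. No PCDHB gene was called in any of the 7 comparisons. In the annotation used for names, 4 protein-coding genes without a PCDHB symbol lie between PCDHB3 and PCDHB7. Another 1 lies between PCDHB7 and PCDHB16, so the sum may not cover the whole cluster. PCDHB2, PCDHB3, PCDHB7, PCDHB10, PCDHB11, PCDHB12, PCDHB13, PCDHB14 and PCDHB16 lie in a cluster of near-identical copies, and reads can be split between them or lost, so single values are uncertain. In descending against ascending all 9 had a difference above 0 (median 0.19, range 0.09 to 0.58), where 49.1% of all genes did. Without the 3 libraries 8 of 9 did (median 0.087). The 9 differences come from the same libraries and from copies that can share reads, so they are not 9 independent results. In suprarenal against descending 2 of 9 were above 0 (median -0.03), where 51.7% of all genes were. With RLE size factors or library totals 3 of 9 were above 0, and 5 of 9 without the 3 libraries (median 0.087). The suprarenal libraries of PCDHB13 (3.40 to 4.02 CPM) and PCDHB7 (4.89 to 6.84 CPM) all lay below the descending ones (4.83 to 6.13 and 6.98 to 8.55 CPM), with differences of -0.51 (SE 0.23) and -0.32 (SE 0.22) that were not called.

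**Figure D4:**
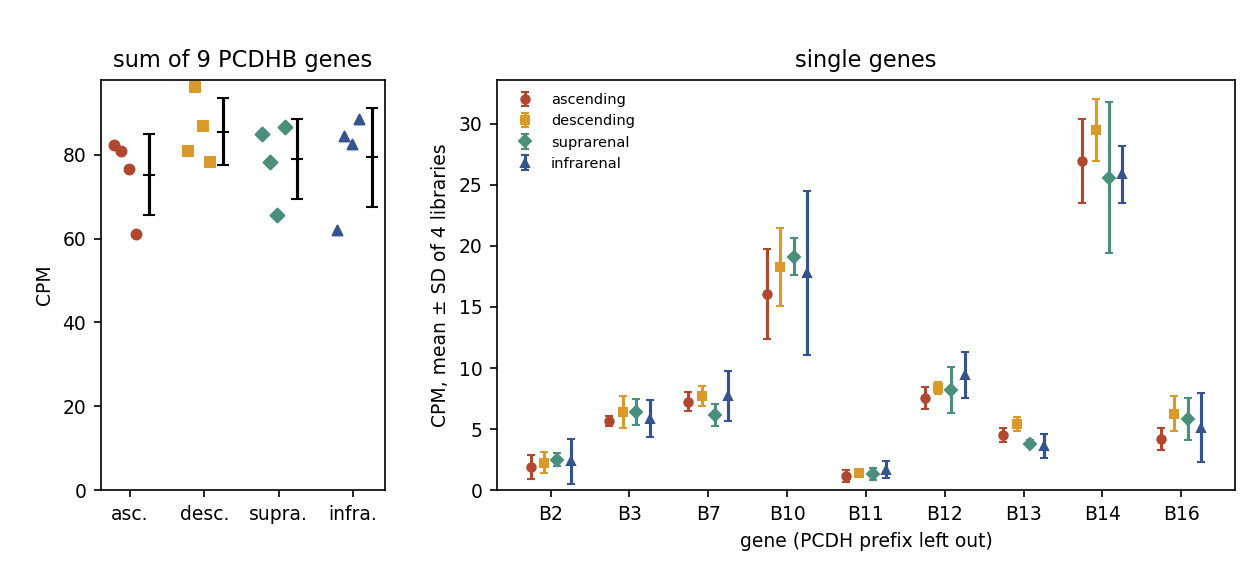
Left, summed CPM of the 9 PCDHB genes by region, with a point per library and bars for mean ± SD; right, CPM of each PCDHB gene as mean ± SD of the 4 libraries of each region. The sums lie between 61.1 and 96.1 CPM in all 16 libraries, and the bars of the regions overlap for the sum and for most single genes.

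The counts of calls over all 29 members are set here beside the share of all genes called. With the infrarenal region set against the mean of the other 3 regions, edgeR called 0 of 29 members, where 2.98% of all genes were called. There 5 members (CDH19, CDH24, PCDH11X, PCDH17 and PCDH9) had an unadjusted p under 0.05, a share of 17.2% against 13.7% of all genes, and DESeq2 called 1, CDH24. In descending against ascending 0 of 29 were called (0.113% of all genes), with 5 at an unadjusted p under 0.05 (CDH11, CDH24, CDH7, PCDH15 and PCDH9; 6.74% of all genes), and DESeq2 called PCDH9 and CDH24. In suprarenal against descending 0 of 29 and 0% of all genes were called by edgeR, with CDH24 and PCDHB13 at an unadjusted p under 0.05 (1.66% of all genes), and DESeq2 also called 0 members. In infrarenal against suprarenal 0 of 29 were called (0.201% of all genes), with CDH19 and CDH24 at an unadjusted p under 0.05 (5.76% of all genes), and DESeq2 also called 0 members.

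The infrarenal libraries all lay above the ascending ones in 3 of 29 members (CDH11, PCDH17 and PCDH9), where 2.97% of all genes did, and below them in 1 (CDH24), where 4.22% did. In descending against ascending 2 members (PCDH15 and PCDH9) lay wholly above, where 5.42% of all genes did, and CDH24 wholly below, where 6.37% did. In suprarenal against descending PCDHB13 and PCDHB7 lay wholly below, 2 of 29 where 0.942% of all genes did, and in infrarenal against suprarenal CDH24 did, where 1.56% did. No member lay wholly to 1 side in the infrarenal region against the other 12 libraries (0.471% of all genes above and 0.904% below) or in the abdominal against the thoracic aorta (0.0314% and 0.0691%). The median difference of the members was 0.15 against 0.05 for all genes in infrarenal against ascending, 0.15 against -0.01 in descending against ascending and 0.11 against 0.04 in abdominal against thoracic. It was -0.06 against 0.03 in infrarenal against the rest, 0.06 against 0.01 in suprarenal against descending and -0.10 against 0.00 in infrarenal against suprarenal. Without infrarenal library 1 the members' median was 0.10 in infrarenal against the rest, 0.07 in infrarenal against suprarenal, 0.37 in infrarenal against ascending and 0.21 in abdominal against thoracic. Without the 3 libraries that stood apart it was 0.19, 0.074, 0.22 and 0.19 in the same order and 0.091 in descending against ascending, so the 2 negative medians turned positive. These comparisons share libraries and are not independent of one another.

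**Figure D5:**
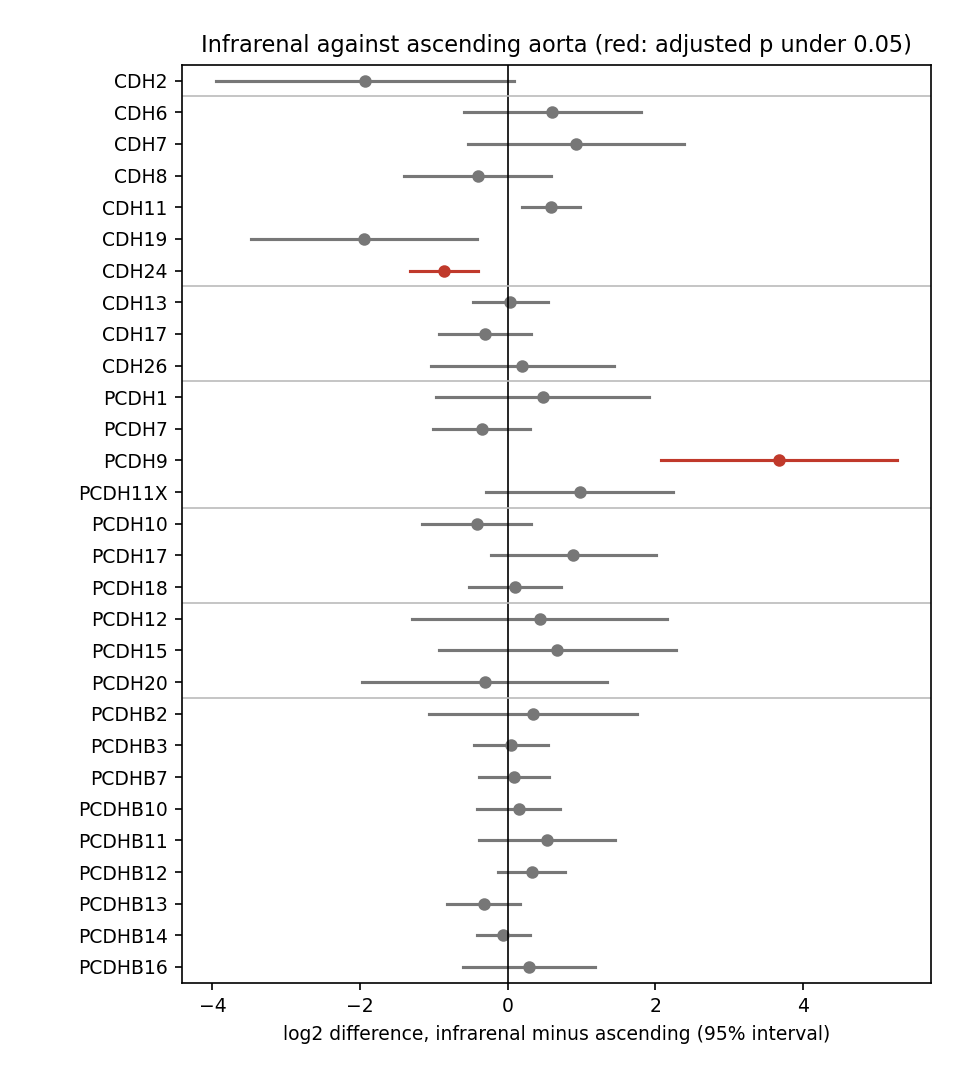
Log2 difference of the infrarenal against the ascending aorta for each of the 29 members (rows, grouped by family), with points for the edgeR estimate and lines for its 95% interval. PCDH9 (3.67) and CDH24 (-0.86), drawn in red, have an adjusted p under 0.05, and the intervals of CDH11 (0.59) and CDH19 (-1.95) also leave out 0, without adjustment for the number of genes.

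Genes that work with cadherins were taken as 3 lists. Of 16 catenins and other cytoplasmic partners, 14 were tested, and 2 were called higher and 1 lower in infrarenal against ascending, where 1.43% and 2.06% of all genes were (median 0.24, against 0.05 for all genes). CTNNA3, an alpha-catenin that links the junction to actin, stood at 0.545 to 1.57 CPM in the ascending and 29.6 to 49.9 CPM in the infrarenal libraries and rose by 5.19 (SE 0.65, adjusted p = 0.00036). CTNND2, a delta-catenin known from neurons, had 7 to 296 counts per ascending library (0.422 to 18.3 CPM) and 0 to 3 counts per infrarenal library (at most 0.197 CPM). It fell by 6.27 in the fit (adjusted p = 0.00589), a size that depends on the prior count because so few infrarenal counts remain. LIMD1, a LIM protein recruited to junctions under tension, rose by 1.27 (adjusted p = 0.0176), a call lost without ascending library 1 or infrarenal library 2 (up to 0.0684). The core partners were not called, namely CTNNB1, the beta-catenin (0.47, SE 0.18, adjusted p = 0.22), CTNNA1 (0.04, SE 0.13), CTNND1, the p120-catenin (0.01, SE 0.21), and JUP, the plakoglobin (0.22, SE 0.27). In the test of any difference and in abdominal against thoracic CTNNA3 and CTNND2 were called. In infrarenal against the rest LIMD1 was called as well, and 0 of 14 were called in the other 3 comparisons.

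Of 24 regulators, glycosyltransferases and proteases of cadherins, all were tested and 3 were called in infrarenal against ascending, all higher, where 1.43% of all genes were (median 0.07, against 0.05 for all genes). SNAI2, a transcriptional repressor of E-cadherin, had 12 to 16 CPM in the ascending and 21.6 to 36.4 CPM in the infrarenal libraries, without overlap, and rose by 1.10 (SE 0.21, adjusted p = 0.00825). TMTC1 and TMTC2, enzymes that attach mannose to cadherins, rose by 1.15 (adjusted p = 0.0258) and 2.30 (adjusted p = 0.0236). The call of TMTC1 was lost without ascending 1, 2 or 4, without infrarenal 2, 3 or 4, and with library totals (up to 0.103). That of TMTC2 was lost without ascending 1, 2 or 3 or infrarenal 2 or 3 (up to 0.0828). Of the list, SNAI2 was called in the test of any difference and TMTC1 in infrarenal against the rest, and 0 of 24 in the other 4 comparisons. Of 25 other members of the cadherin superfamily (CDH5 and the CDHR, FAT, DCHS, CELSR, desmosomal and CLSTN genes and RET), 15 were tested and 0 were called in any of the 7 comparisons. The desmosomal genes DSG1, DSG3 and DSC1 and CDHR3 had 0 counts in all 16 libraries.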

How the data were processed

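Whole reads per gene were counted by the authors, and the deposited counts of 16 libraries, per NCBI GeneID, were used as they stand. Reads were handled with fastp, HISAT2 2.0.5 and featureCounts 1.5.0-p3 per the submitters' processing notes; the genome build, the annotation and the strand setting are each not given in the sources used here. Symbols came from the RefSeq gene table of the telomere-to-telomere macaque assembly MFA8v1.1, used for names and neighbouring genes only (24609 of 32846 rows, 74.9%). No sequence is printed and no gene length was used.

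Genes were filtered with filterByExpr (minimum count 10, minimum total 15), scaled with TMM and tested in edgeR 4.0.16 (R 4.3.3) by its quasi-likelihood F test, where every one of the 4 regions had its own mean and all 16 libraries were fitted. The common dispersion was 0.146, with 12 residual degrees of freedom. Benjamini-Hochberg adjustment ran over 15926 genes in each of 7 comparisons. No library repeated another: chi-square values between libraries of a region were at least 29.5 per degree of freedom. Library totals of 14.4 to 21.41, in units of 1e6 counts, set the precision.

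Named in full were CDH2, CDH13 and PCDH7, each called member, and the 3 uncalled members of highest mean CPM; other genes given in detail were chosen after their values were seen. The members and lists were chosen with earlier results of these data known. Alternatives were a replicate block, RLE size factors, library totals, no filter beyond 1 count, DESeq2 1.42.0 and leaving out each library; leaving out infrarenal 1, ascending 4 and suprarenal 3 together was added after the data were seen. On simulated data with 15710 genes, infrarenal against ascending recovered 22.2% of 99 changes of 2-fold and 75.3% of 97 changes of 4-fold, and 2 of 97 calls were false. Smaller changes of uncalled genes could therefore be missed. The simulated libraries were independent draws at the dispersion trend, without the spread of single genes about it and without libraries that stand apart. These rates may therefore not hold for the members.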

Additional observations from a re-analysis of the deposited data

Results flagged for a closer look

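Among 116 groups of 4 libraries (29 members in 4 regions), 11 groups from 9 genes had a library whose gap to the nearest other library was larger than Dixon's 95% limit. About 1 in 20 groups of independent, normally distributed values pass that limit. CPM values need not be so distributed and the groups share libraries, so the count cannot be set against that rate. Suprarenal library 3 accounted for 4 of the 11 groups and ascending library 4 for 2.

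In suprarenal library 3, PCDH1 stood at 43.1 CPM (5.75 to 8.85 in the others of that region) and PCDH12 at 44.0 CPM (2.72 to 9.63), both high, while PCDH9 at 2.73 CPM (17.6 to 19.3) and PCDHB11 at 0.571 CPM (1.54 to 1.63) were low. In ascending library 4, CDH19 stood at 39.5 CPM (4.75 to 7.32 in the others) and PCDH12 at 36.2 CPM (6.36 to 7.26). In single libraries, CDH11 was high in infrarenal library 2 at 68.7 CPM (53.7 to 55.7), CDH6 in infrarenal library 4 at 7.75 CPM (2.29 to 3.21), CDH8 in descending library 1 at 48.8 CPM (20.4 to 22.1), PCDH11X in ascending library 2 at 14.1 CPM (4.35 to 5.33) and PCDHB11 in descending library 4 at 1.77 CPM (1.21 to 1.26). The endothelial marker sums beside PCDH1 and PCDH12 are given with those genes above, and no cause was tested.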

How the results depend on the processing

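Of 83 gene results, 59 kept their direction and side of the threshold in all 22 other settings, and 1737 of 1826 values did so. Results of the test of any difference have no direction and were judged by the threshold alone. Uncalled results that stayed uncalled are counted as kept. Of the calls of members, only that of PCDH9 in infrarenal against ascending held in all 22 settings. No called member changed direction. Members called in the test of any difference were 0 with library totals, 2 with DESeq2, 3 without the 3 libraries (PCDH1, PCDH12 and PCDH9) and 0 to 2 without 1 library, against 1. In infrarenal against the rest they were 1 with DESeq2 and 3 without the 3 libraries (PCDH1, PCDH12 and PCDH7), against 0. In abdominal against thoracic they were 0 with library totals and 0 to 1 without 1 library, against 1. In infrarenal against ascending they were 1 with no filter, 5 without the 3 libraries (CDH11, CDH24, PCDH1, PCDH12 and PCDH9) and 1 to 3 without 1 library, against 2. In descending against ascending they were 2 with DESeq2 and 1 without the 3 libraries, against 0. Without the 3 libraries the calls over all genes rose as well. They went from 322 to 1128 in any difference, from 474 to 1607 in infrarenal against the rest and from 556 to 2099 in infrarenal against ascending. The higher member counts there are therefore not particular to the members. The cause was not tested.

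The labels do not say that a library number marks an animal, so the main fit did not treat the numbers as a pairing. Its p-values leave out any link between libraries of the same number. Of 24 same-numbered pairs, 19 had a correlation of deviations over 0.1 (-0.17 to 0.58, against a median of -0.095 for pairs of different number). Each same-numbered pair at or under 0.1 held ascending library 4, suprarenal library 3 or infrarenal library 1, the libraries that stood apart. As a hint from the data, 15 of 16 libraries lay closest to their own number. With the number as a replicate block, members called were 1 in infrarenal against the rest (PCDH11X, 1.19, adjusted p = 0.0144), 1 in descending against ascending (PCDH9, adjusted p = 0.0047) and 3 in infrarenal against ascending, where CDH2 gave -2.36 (adjusted p = 0.0324).

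Signs turned in uncalled results only. With library totals CDH13 gave -0.015 in infrarenal against the rest and -0.051 in infrarenal against ascending, where the block gave -0.019. Without the 3 libraries PCDH18 gave 0.052 in abdominal against thoracic, CDH2 -0.021 in suprarenal against descending and CDH13 0.098 in infrarenal against suprarenal. Without 1 library, CDH13 ran from -0.094 to 0.15 in infrarenal against the rest, from -0.13 to 0.16 in infrarenal against ascending and from -0.25 to 0.069 in infrarenal against suprarenal. PCDH18 ran from -0.51 to 0.0079 in infrarenal against the rest, from -0.21 to 0.055 in abdominal against thoracic and from -0.19 to 0.33 in infrarenal against ascending. CDH2 ran from -0.44 to 0.599 in suprarenal against descending and PCDH9 from -0.57 to 0.12 in infrarenal against suprarenal.

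Over all genes, calls without the 3 libraries were 1128, 1607, 920, 2099, 141, 0 and 241 in the 7 comparisons in the order of any difference, infrarenal against the rest, abdominal against thoracic, infrarenal against ascending, descending against ascending, suprarenal against descending and infrarenal against suprarenal, and 825, 852, 650, 1004, 177, 0 and 167 with DESeq2, against 322, 474, 336, 556, 18, 0 and 32. Without 1 library they ran from 213 to 477, 267 to 568 (both lowest without infrarenal 2), 214 to 497 (lowest without suprarenal 2), 345 to 1001 (without infrarenal 2 and infrarenal 1), 7 to 34 (ascending 3 and infrarenal 1), 0 to 0 and 3 to 52 (infrarenal 2 and suprarenal 2). The block gave 532 for any difference, 546 for abdominal against thoracic, 843 for infrarenal against ascending, 62 for descending against ascending and 84 for infrarenal against suprarenal, where library totals gave 52 and no filter 51. Library totals gave 159 higher and 305 lower in infrarenal against the rest, against 218 and 256. Members of few counts, such as CDH7, limit the sizes of change that 4 libraries a region can show.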

Other observations

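CDH20 and CDH3, which did not pass the count rule, had their highest count in the same library: ascending library 4 held 65 of the 131 counts of CDH20 and 27 of the 42 counts of CDH3. The summed level of 8 mesothelial markers was 1022 CPM in that library against 24.2 to 162 CPM in the other 15. These values are given without a test.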
